A study of Mus musculus with 282 samples.

Results

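The CCT complex, also called TRiC, is the chaperonin of the eukaryotic cytosol. Tcp1, Cct2, Cct3, Cct4, Cct5, Cct6a, Cct7 and Cct8, the 8 genes for its subunits, were followed through single hematopoietic stem cells (HSCs) of the mouse. The members were chosen by symbol, with earlier results on these cells known, and all 8 were found among 49671 Ensembl gene rows of the deposited count table. Their levels and their detection are therefore given as a description, with no test. All 8 passed the filter for low values, 10 CPM (CPM is a gene's reads over all gene reads of the cell, scaled in the usual way) in at least 10% of kept cells, as did 9689 genes in all.

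The complex consists of a pair of stacked rings, each built from 1 copy of every subunit, and folds proteins inside its cavity at the cost of ATP. Actin and tubulin depend on it, and prefoldin and phosducin-like proteins hand over clients or adjust its work. In HSCs, which divide rarely and make protein slowly, the cost of keeping proteins folded is a known theme, so the level of the machinery in resting cells is of interest.

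The cells came from bone marrow of un-induced mice homozygous for 2 alleles, rtTA at Rosa26 and a doxycycline-dependent H2B-GFP transgene at Col1A1. Every cell carried both alleles and none was induced, so there was 1 group and no treated arm, and 19 of the kept cells had a read of the transgene. The series description gives 6 mice, 12 to 22 weeks old, used in 2 experiments. HSCs were sorted as LSK CD48-/lo CD150+ cells. LSK stands for cells without lineage markers that carry Sca-1 and Kit. Of 282 cells, 232 had at least 100000 gene reads and 1000 genes and were kept, with a median of 280096 gene reads (range 116009 to 1680714).

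The labels give each cell a library number, starting with 29 or 32, and an HSC code, but no animal. Library series and code together form 6 sets. In series L29 the sets HSC-3 and HSC-4 kept 46 and 43 cells, and in series L32 the sets HSC-2, HSC-3, HSC-4 and HSC-5 kept 22, 44, 38 and 39. Sets are not known to be separate animals, so the SD over sets measures only the spread between these sets, which may be technical. Cells of L29 HSC-4 were poorer in genes, 4151 in the median cell against 5126 to 5686 elsewhere, and richer in mitochondrial reads, 6.66% against 3.28% to 3.73%. L29 HSC-3 held 29.1 gene reads per spike-in read against 13.9 to 17.4 elsewhere. Of the gate's genes, Kit was detected in 84.5% of cells and Ly6a (Sca-1) in 72.4%, Ptprc (CD45) in 66.8% and Cd48 in 0.862%, and the HSC gene Angpt1 in 92.7%. Slamf1 (CD150) RNA was detected in 19.4% of cells. Of markers of other blood cells, 0 of 7 T and NK cell genes, 0 of 5 mast cell and basophil genes and 1 of 7 B cell genes (Cd79b) passed the filter, as did 2 of 9 erythroid and 6 of 8 megakaryocyte genes. Of 10 myeloid genes 2 passed, Lyz2 and Prtn3, detected in 87.1% and 81.9% of cells.

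Sequences before RefSeq start sites of the subunit genes are shown first, because genes for equal parts of 1 machine invite the question of which letters their promoters share. RefSeq windows on GRCm38.p6 were matched by symbol for 7 of the 8 genes, in 9 windows. The 250 bases before each RefSeq start site were searched on both strands. The windows of Tcp1 and Cct6a, and 1 window each of Cct2 and Cct5, lie inside the gene's span in the count table. They are therefore not upstream of the whole gene. Of the 9 windows, 4 are printed as examples, which between them hold the 3 most frequent motifs. Cct4 is the gene with none listed. Capitals mark GC boxes, CCAAT boxes and ETS cores on either strand, and all run 5′ to 3′ along the gene.
Tcp1, chr17:12916079-12916328, plus strand: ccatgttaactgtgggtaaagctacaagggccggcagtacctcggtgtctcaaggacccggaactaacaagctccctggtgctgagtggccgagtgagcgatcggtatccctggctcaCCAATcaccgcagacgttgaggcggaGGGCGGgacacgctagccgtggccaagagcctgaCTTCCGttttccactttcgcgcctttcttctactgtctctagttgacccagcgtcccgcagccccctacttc
Cct3, chr3:88296885-88297134, plus strand: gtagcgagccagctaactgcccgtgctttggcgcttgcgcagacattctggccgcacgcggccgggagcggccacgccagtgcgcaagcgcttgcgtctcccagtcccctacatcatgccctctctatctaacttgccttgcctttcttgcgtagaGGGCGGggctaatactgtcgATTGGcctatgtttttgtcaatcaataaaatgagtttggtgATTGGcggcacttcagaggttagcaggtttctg
Cct7, chr6:85451255-85451504, plus strand: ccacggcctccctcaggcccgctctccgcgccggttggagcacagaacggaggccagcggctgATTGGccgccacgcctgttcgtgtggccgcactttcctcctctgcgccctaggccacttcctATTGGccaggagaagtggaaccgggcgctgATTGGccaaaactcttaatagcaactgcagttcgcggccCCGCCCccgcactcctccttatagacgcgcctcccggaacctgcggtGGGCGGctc
Cct8, chr16:87495870-87496119, minus strand: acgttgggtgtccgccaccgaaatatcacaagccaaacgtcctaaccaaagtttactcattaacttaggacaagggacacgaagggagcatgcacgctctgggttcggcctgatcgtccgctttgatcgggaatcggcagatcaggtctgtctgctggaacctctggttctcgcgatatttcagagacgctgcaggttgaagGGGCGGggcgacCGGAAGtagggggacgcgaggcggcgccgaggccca

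The GC box, GGGCGG, was the most widespread of the motifs searched in these windows. It stood in 8 of 9 subunit windows (88.9%) and in 32.7% of all 32851 windows. The CCAAT box stood in 4 of 9 (Tcp1, Cct3, Cct6a and Cct7) against 33.8% of all windows, and the ETS core CGGAAG in 3 of 9 (Tcp1, Cct2 and Cct8) against 13.6%. Heat shock elements in the form GAANNTTC were found in 1 subunit window (Cct2) and in 6.69% of all, and in the form TTCNNGAA in 1 (Cct5) and in 7.17% of all. The Myc and Max E-box CACGTG and the palindromic Nrf1 core were in 0 of 9 subunit windows, against 6.02% and 0.782% of all. The subunit windows had a median GC content of 59.2% against 52.4% over all windows, and no match was set against GC content. A match is a run of letters and describes no binding.

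In the average HSC every subunit was a well-expressed transcript. Mean levels over the 6 sets lay between 366 CPM (Tcp1) and 776 CPM (Cct5), which placed the 8 genes between rank 103 and rank 328 of all genes by mean CPM. Together they took 4226 CPM ± 370 (SD, n = 6 sets), with the lowest set, L29 HSC-3, at 3760 CPM and the highest, L32 HSC-3, at 4728 CPM. Levels in CPM do not say how much RNA a cell holds. In reads per 1000 spike-in reads, the order of the sets differed: L29 HSC-3 was then highest at 121, and the other 5 sets lay between 68.7 and 91.0.

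Cct5, the epsilon subunit, whose human form can build rings on its own when made in bacteria, had the highest level in CPM. It averaged 776 CPM ± 113 (SD, n = 6 sets), from 631 CPM in L29 HSC-3 through a median of 834 to 876 CPM in L32 HSC-2, and was detected at 10 CPM in 89.2% of cells (95% Clopper-Pearson interval 84.5% to 92.9%). L29 HSC-3 and L32 HSC-5, at 631 and 633 CPM, lay apart from the other 4 sets, which ran from 828 CPM up. Cct4, the delta subunit, followed at 695 CPM ± 97.0, from 566 CPM in L29 HSC-3 through a median of 715 to 824 CPM in L32 HSC-2, and was detected in 89.7% of cells. In L32 HSC-2 every one of the 22 cells carried Cct4.

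Cct8, the theta subunit, varied least from set to set. It averaged 582 CPM ± 42.3 with a coefficient of variation (CV, SD over mean) of 7.28% over sets, against 13.3% to 26.0% for the other 7. Its sets ran from 524 CPM through a median of 579 to 655 CPM, and 82.8% of cells had it. Cct7, the eta subunit, averaged 522 CPM ± 89.0, from 393 CPM in L29 HSC-4 through a median of 537 to 612 CPM in L32 HSC-5. Its detection split the sets more than its mean, with 46.5% of cells in L29 HSC-4 and between 67.4% and 87.2% in the others.

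Cct6a, the zeta subunit, varied most. It averaged 513 CPM ± 133, from 351 CPM in L29 HSC-4 through a median of 476 to 743 CPM in L32 HSC-3, where 97.7% of cells had it against 53.5% in L29 HSC-4. Its germ-cell paralog Cct6b, known from testis, averaged 2.30 CPM ± 0.546 and reached 10 CPM in 5.17% of cells. The intronless relative Cct8l1 averaged 0.270 CPM, with reads in 3 cells.

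Cct3 (gamma), Cct2 (beta) and Tcp1 (alpha), the subunit for which the complex is named, had the lowest levels in CPM. Cct3 averaged 392.4 CPM ± 87.4, from 293 CPM in L29 HSC-3 through a median of 390 to 499 CPM in L32 HSC-3. Cct2 averaged 380 CPM ± 50.5, from 337 through a median of 362 to 452 CPM. Tcp1 averaged 366 CPM ± 73.6, from 278 CPM in L32 HSC-4 through a median of 354 to 466 CPM in L29 HSC-4. These 3 were detected in 68.5%, 74.6% and 73.3% of cells, and their ranges over sets overlapped.

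**Figure D1:**
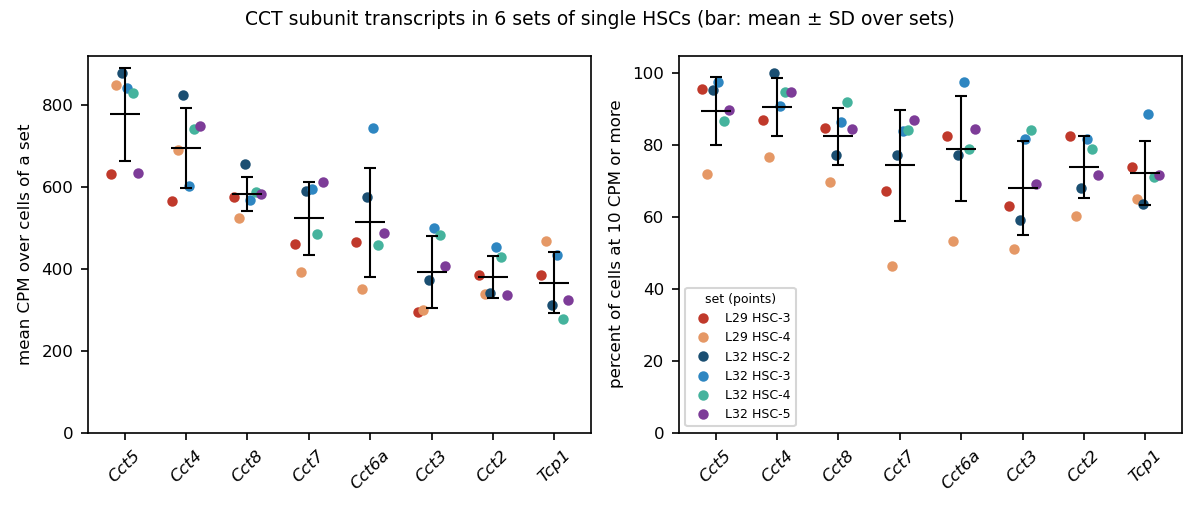
Mean CPM (left) and percent of kept cells at 10 CPM or more (right) for the 8 subunits in each of the 6 sets (colored points), with the mean ± SD over sets in black. Cct5 and Cct4 lead on both axes, Cct8 has the narrowest spread in CPM, and L29 HSC-4 is the lowest set in detection for 7 of the 8 subunits, Tcp1 being the exception.

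Levels can be set against each other only per length, and the order depended on which length was used. Per kb of the deposited length, Cct5 led with 276 CPM per kb ± 40.2, followed by Cct2 (194), Cct8 (188), Cct4 (165) and Cct6a (142), with Cct7 (77.1), Tcp1 (72.8) and Cct3 (61.6) below them. Cct5 was above Cct2 in 6 of 6 sets, and Cct6a above Cct7 in 6 of 6 sets with no overlap. Cct2 and Cct8 did not differ beyond their spread, nor did Cct7, Tcp1 and Cct3. The deposited lengths are the union of all annotated exons, 6778 bases for Cct7, 6370 for Cct3 and 5030 for Tcp1.

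On the length of the principal transcript in GENCODE M21, an alternative added after the data were seen, the gap below Cct6a closed. For Cct6a the principal transcript is annotated as a processed transcript without a coding sequence, so its value on this scale rests on that length. The length was 2441 bases for Cct7, 1977 for Cct3 and 2446 for Tcp1, and between 1853 and 2484 bases for the others. On this scale Cct5 led with 419 CPM per kb ± 61.0 and Cct4 was next with 280, and their sets did not overlap. Cct8 (243), Cct7 (214), Cct6a (209), Cct3 (199) and Cct2 (194) followed with overlapping ranges, and Tcp1 was lowest at 150 CPM per kb ± 30.1. Cct5 was first on both scales and on reads alone, while Cct2 had rank 2 on the first scale and rank 7 on the other.

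As shares of the summed level, the transcripts of the 8 subunits were not equal, although the rings need equal numbers of proteins. Per kb of the deposited length, Cct5 made up 23.4% ± 2.63 (SD, n = 6 sets) and Cct3 5.20% ± 0.879, a ratio of 4.51. With the principal transcript length the extremes were Cct5 at 22.0% and Tcp1 at 7.93%, a ratio of 2.77, and with reads alone Cct5 at 18.4% and Tcp1 at 8.75%, a ratio of 2.10.

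Cell by cell, the reads of each subunit were close to all-or-none. Of 232 cells, 49 had 0 Cct7 reads, 12 had reads under 10 CPM and 6 lay between 10 and 100 CPM, while cells with any read had a median of 598 CPM. For Cct4, 18 cells had 0 reads, 6 had reads under 10 CPM and 14 lay between 10 and 100 CPM, with a median of 684 CPM in cells with a read. For Tcp1 these numbers were 53, 9 and 13, with a median of 410 CPM. The highest cell reached 4204 CPM for Cct5. At the median depth, 10 CPM is 2.8 reads, so a cell without reads may still hold a few molecules, and a single-cell library captures only part of them.

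**Figure D2:**
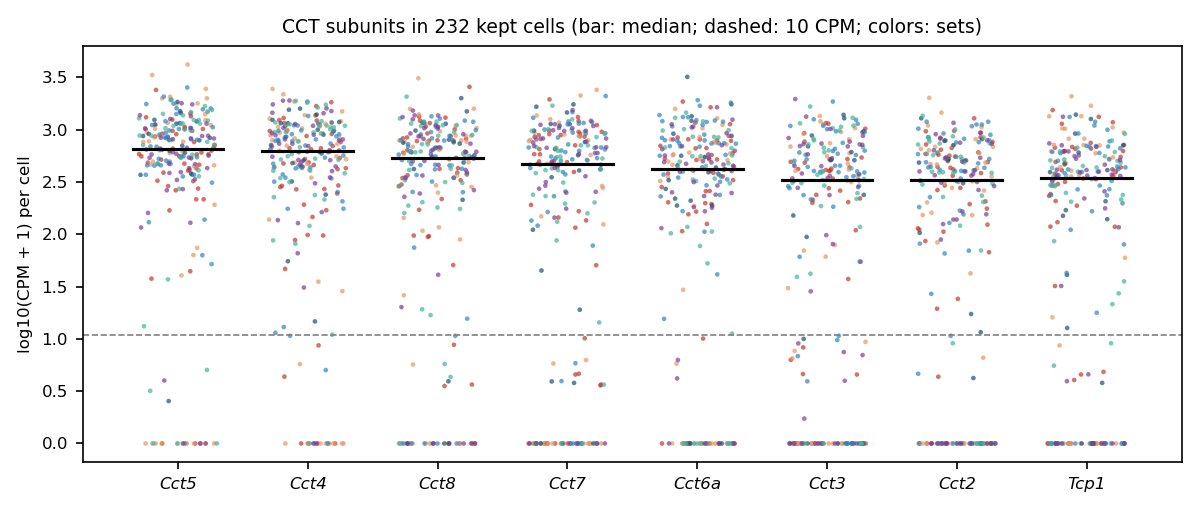
Level of each subunit in every kept cell, as log10(CPM + 1), colored by set, with the median as a black bar and 10 CPM dashed. Most cells sit in 1 cloud above 100 CPM and most of the rest at 0, with few between.

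The spread over cells was that of a moderately noisy gene. The CV over cells lay between 0.747 (Cct4) and 1.05 (Cct3). Against the trend of all tested genes at the same mean, the subunits stood between the 54.5th percentile (Cct2) and the 84.6th (Cct5). Spike-in RNAs are a rough yardstick. Their share of a library also varies with the RNA of the cell, and median gene reads per spike-in read ran from 13.9 to 29.1 over sets. Of the spike-ins, 7 with a like number of reads had CVs from 0.655 to 1.07. The subunits' CVs lay within that range, which does not show what part of their spread is technical. The same 7 spike-ins had a read in 71.1% to 95.3% of cells. The subunits had a read in 75.9% (Cct3) to 92.2% (Cct4) of cells. What part of the cells without a subunit's reads is technical was not tested.

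A complete set of 8 subunit transcripts was detected in 68 of 232 cells, or 29.3% (95% Clopper-Pearson interval 23.5% to 35.6%). Another 67 cells had 7 subunits and 37 had 6, so 172 cells (74.1%) had at least 6. Of 232 cells 0 lacked all 8, which allows a share of up to 1.29%, and 1 cell had a single subunit. By set, the share with all 8 ran from 16.3% in L29 HSC-4 to 47.7% in L32 HSC-3, with a mean of 28.5% ± 13.3 (SD, n = 6). Without L29 HSC-4, the set with the fewest genes per cell, the mean was 30.9%. With every cell thinned to 100000 reads and 1 read as detection it was 30.4%. Libraries carried no molecular identifiers, so intervals and limits cover counting error only.

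The number of subunits detected went with how much RNA the well yielded. The 38 cells with 4 or fewer subunits had a median of 4146 genes and 11.5 gene reads per spike-in read, against 6006 genes and 21.7 for the 68 cells with all 8. Both groups of cells were pooled over sets. L29 HSC-4 had a median of 5 subunits per cell and the other sets 6 or 7. In L29 HSC-4, 44.2% of cells had at least 6 subunits, against 73.7% to 93.2% in the other sets. The parts of RNA content and of set in these counts were not tested.

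**Figure D3:**
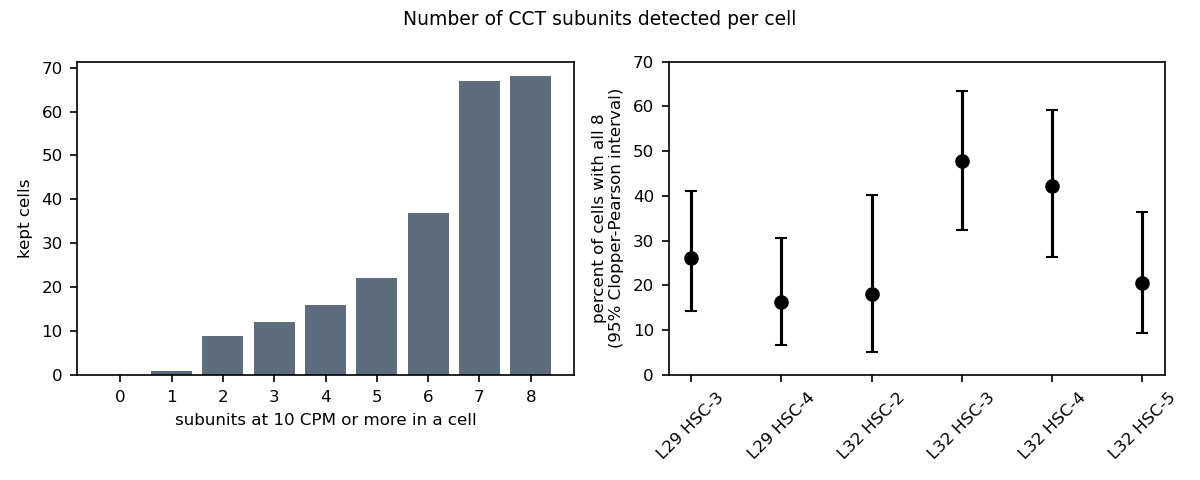
Number of kept cells by how many of the 8 subunits reached 10 CPM (left), and the percent of cells with all 8 in each set with its 95% Clopper-Pearson interval, which covers counting error only (right). Cells with 7 or 8 subunits are the most frequent, and the interval of L29 HSC-4 lies below that of L32 HSC-3.

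Within a cell, reads were unevenly spread over the subunits. The subunit with the most reads held a median of 29.5% of the cell's CCT reads, with 38.8% in L29 HSC-4 against 27.3% to 33.6% in the other sets. That leading subunit was Cct5 in 58 cells, Cct4 in 44, Cct7 in 34, Cct8 in 29, Cct6a in 25, Cct3 in 18, Cct2 in 14 and Tcp1 in 10. Summed over the 8 subunits, CCT reads made up a median of 0.422% of a cell's gene reads, from 0.0223% to 0.903%. The lowest value came from 1 cell of L32 HSC-3, which had 13734 genes, the most of any kept cell. In the other sets the lowest was 0.0678%, in L29 HSC-4.

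Wells that received little or no RNA were looked at for background reads. In 38 wells of series L32, 22 in HSC-2 and 16 in HSC-3, spike-in reads outnumbered gene reads. Their summed CCT level was 817 CPM, or 17.5% of the 4659 CPM in the 66 cells kept from these sets. Each level is a share of its own gene reads, which came to 616795 over the 38 wells. The 17.5% is therefore not the share of background in a kept cell's CCT reads. Higher levels in these wells than in kept cells were seen for 0 of 8 subunits and for 21.3% of tested genes. The median tested gene stood at 22.5% of its kept level. Cct4 was at 242 CPM against 659 CPM and Cct8 at 40.5 CPM against 610 CPM. The 38 wells held 504 CCT reads in all, so that these levels rest on few reads per gene.

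The library series were compared across sets with edgeR's quasi-likelihood test on summed counts, 4 sets of L32 against 2 of L29. Of 16476 genes tested, 0% passed an adjusted p of 0.05, 1433 had an unadjusted p under 0.05, and 0 of 8 subunits were called. DESeq2's Wald test called 299 genes higher and 111 lower in L32, again with 0 of 8 subunits. Levels here are TMM-scaled CPM of the reads summed over a set, in which deeper cells weigh more, and so differ from the means over cells given above. On this scale Cct7 had the lowest p among the subunits, at 630 in L32 and 434 in L29, a log2 difference of 0.54 ± 0.18 (SE) with an adjusted p of 0.489 in edgeR. The L29 sets, at 419 and 449, lay below all 4 L32 sets, at 548 to 760 on the same scale, of which L32 HSC-2 was highest. In mean CPM over cells the L32 sets ran from 485 to 612. Cct3 differed by 0.50 ± 0.28, Cct6a by 0.33 ± 0.24, Cct4 by 0.28 ± 0.20, Cct5 by 0.25 ± 0.20, Cct8 by 0.18 ± 0.16 and Cct2 by 0.10 ± 0.19. Tcp1 was the only one with a negative difference, -0.35 ± 0.22. The median over all genes was 0.07. None of these differences was called, which does not show that the series were alike.

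Whether cells rich in 1 subunit were rich in the others was asked next. Partial Spearman correlations were taken across the cells of each set, given genes detected, total reads and plate, and averaged over sets. For the 28 subunit pairs the median rho was 0.056, with 21 of 28 positive, and for all 46933516 pairs of tested genes it was 0.0025. Positive in 6 of 6 sets were 2 of 28 subunit pairs (7.14%), against 1.63% of all pairs. Among all pairs, 3 subunit pairs ranked in the top 1% and 5 in the top 5%. The median share of all pairs above a subunit pair was 23.3%, and for Cct2 with Cct8 it was 97.9%. All pairs were not matched to the subunits for level. These correlations are weak in sparse counts, share their cells and libraries, and carry no p.

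Cct4 and Cct7 were 1 of the pairs positive in every set, with a mean rho of 0.181 and set values from 0.017 in L32 HSC-2 to 0.451 in L29 HSC-3. The other was Cct3 with Cct8, with a mean rho of 0.173 and set values from 0.031 in L32 HSC-4 to 0.365 in L29 HSC-4. Cct5 with Cct8 had the highest mean, 0.205, but was -0.016 in L29 HSC-4. Tcp1 with Cct6a had a mean of 0.180 and was -0.168 in L29 HSC-3. At the other end, Cct2 with Cct8 averaged -0.142 and was negative in 5 of 6 sets.

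Set values for the same pair lay far apart. Each rests on 22 to 46 cells, and how much of the spread is sampling was not tested. In L29 HSC-3, Cct5 with Cct7 and Cct5 with Cct8 both reached 0.481. In L29 HSC-4 the same pairs were at -0.259 and -0.016. The median over the 28 pairs ran from -0.016 in L32 HSC-5 to 0.101 in L32 HSC-3. With the stricter cell filter of 222 cells 0 pairs were positive in every set, where 1.57% of all pairs were. Without L29 HSC-4 there were 5, but 1 sign was then needed in 5 sets only, which 3.21% of all pairs met.

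Pairs were also grouped by place in the ring. The known ring order is Tcp1, Cct3, Cct6a, Cct8, Cct7, Cct5, Cct2, Cct4, and the 8 pairs of ring neighbours had a median rho of 0.032, from -0.016 to 0.111. The other 20 pairs had a median of 0.071, from -0.142 to 0.205. This grouping was chosen after the values were seen and has no test.

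**Figure D4:**
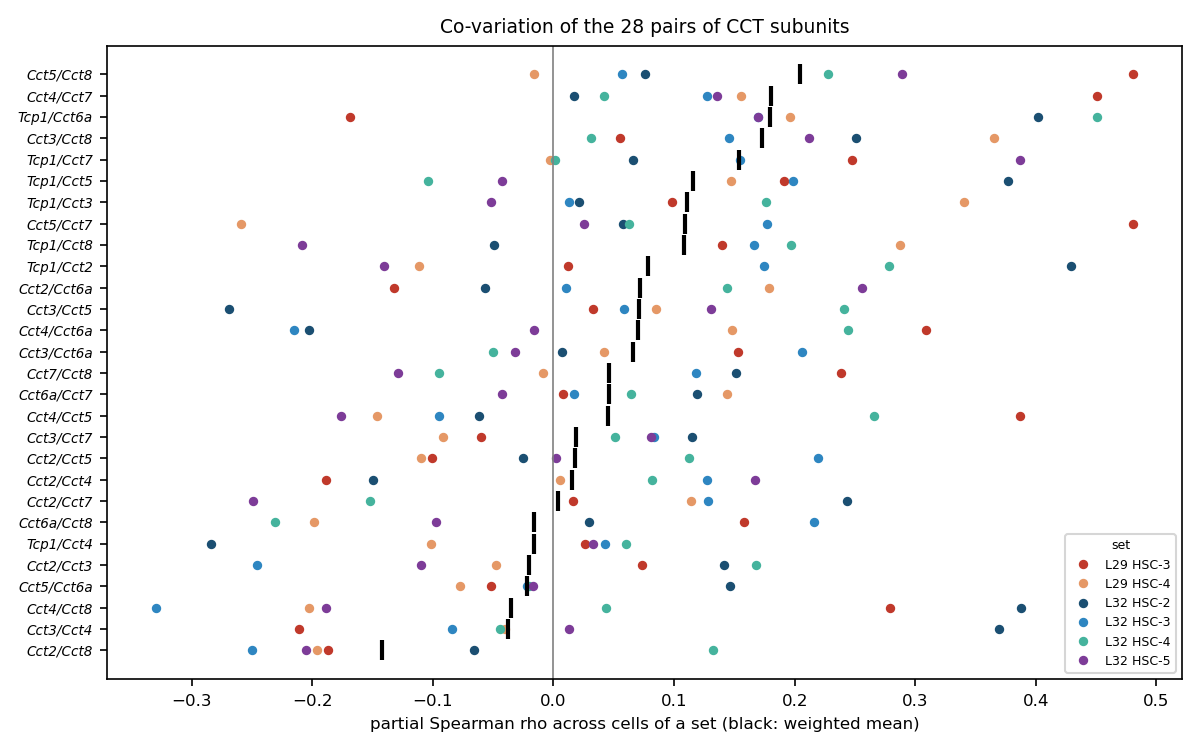
Partial Spearman rho of each of the 28 subunit pairs across the cells of each set (colored points) and its weighted mean (black bar). Means lie between -0.142 and 0.205, and for all pairs but 2, Cct4/Cct7 and Cct3/Cct8, the sets fall on both sides of 0.

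Other gene lists were set beside these. Within-list medians were 0.028 for 31 proteasome subunits, 0.026 for 22 oxidative phosphorylation genes, 0.050 for 25 ribosome biogenesis genes and -0.035 for 6 prefoldin subunits. Above the CCT subunits at 0.056 were 10 ER chaperones (0.079), 11 actin and tubulin clients (0.077) and 22 long-term HSC (LT-HSC) genes (0.063). Of their pairs, 20%, 23.6% and 12.1% were positive in 6 of 6 sets, against 7.14% for the CCT subunits. For proteasome, oxidative phosphorylation, ribosome biogenesis and prefoldin these shares were 3.66%, 3.46%, 7.67% and 0%. The list of 22 S phase genes, whose transcripts rise together in cycling cells, had a median of 0.220 with 53.7% of its pairs positive in 6 of 6 sets.

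Measured against the mean of the other 7, Tcp1 had the highest mean rho, 0.243, positive in 6 of 6 sets, from 0.112 in L29 HSC-3 to 0.522 in L32 HSC-4. Without L32 HSC-4 it was 0.181, below Cct7 at 0.193. Cct7 was also positive in 6 of 6 sets, with a mean of 0.164 and a range from 0.011 to 0.337. Cct6a (0.172) and Cct5 (0.161) were positive in 5 of 6 sets, Cct5 reaching 0.547 in L29 HSC-3 and -0.128 in L29 HSC-4. Cct8 had 0.123 and Cct3 0.077, while Cct4 (0.031) and Cct2 (-0.035) were positive in 3 of 6 sets.

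The CCT score, the mean log2(CPM/10 + 1) over the 8 subunits, was higher in RNA-rich cells. Its rank correlation within sets was 0.584 with gene reads per spike-in read and 0.495 with genes detected, positive in 6 of 6 sets for both. It was -0.183 with the mitochondrial share, positive in 3 of 6 sets. With total reads it was 0.153, also positive in 3 of 6 sets. Genes detected and total reads were held constant in what follows. Gene reads per spike-in read (RNA content) were not, except where stated. Outside the members, 3.26% of 9681 genes were positively related to the score in 6 of 6 sets (316 genes) and 2.45% negatively (237 genes), with a median rho of 0.007.

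The 10 named genes with the highest rho came from several kinds of work. Mtap, the methionine salvage phosphorylase, had 0.353 (from 0.197 to 0.604 over sets) and Tardbp, the RNA-binding protein TDP-43, 0.351 (0.243 to 0.523). Ncl (nucleolin) had 0.336 and Nop56 (a snoRNP core protein) 0.303, both of ribosome assembly. Hspd1, the Hsp60 chaperonin of mitochondria, had 0.306, and Tubb4b, a beta-tubulin and so a client, 0.309. Ran (0.30) and its partner Ranbp1 (0.281) serve nuclear transport, Hnrnpf (0.292) splicing, and Aspscr1 (0.301) is a tether of glucose transporters. At the other end were Ctsh, a lysosomal cathepsin (-0.277), Cers5, a ceramide synthase (-0.273), Alkbh5, an RNA demethylase (-0.263), and Mylip, a ubiquitin ligase for the LDL receptor (-0.257). Cir1, Apoa2, Mamdc2, Csnk2a1, Pdgfrl and Lpl had values from -0.257 to -0.242.

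Actin and tubulin clients and the chaperone lists had mostly positive means. In each list the 4 genes of highest mean CPM are named, and genes with 1 sign in 6 of 6 sets outside those 4 were named after their values were seen. Of actin and tubulin clients, 11 of 11 tested genes had a positive mean rho, with a list median of 0.117, and 3 were positive in 6 of 6 sets (Tubb4b, Actr2 at 0.176 and Tubb5 at 0.096). Actb, the most abundant at 1543 CPM, had 0.117 and Tuba4a 0.151, with 4 and 5 sets positive. Cytosolic heat shock genes had 19 of 20 positive means and a median of 0.129, with Hsp90aa1 (0.258) and Ahsa1 (0.200), an Hsp90 activator, positive in 6 of 6 sets. Hspa8 had 0.248, Cdc37 0.224, Hsp90ab1 0.186 and Fkbp4 0.060, in 4 or 5 sets. Of 9 mitochondrial chaperones, 7 had a positive mean, with Hspd1, its lid Hspe1 (0.218) and Grpel1 (0.131) in 6 of 6 sets, and Hspa9 (0.110) and Trap1 (0.127) in 4 and 5.

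ER chaperones (9 of 10 positive, median 0.103), oxidative phosphorylation (21 of 22, 0.099) and ribosome biogenesis (22 of 25, 0.093) were also mostly positive. So were S phase (21 of 22, 0.082), translation factors (11 of 14, 0.077) and proteasome (29 of 31, 0.062). Over all genes 53.6% were positive, and all genes were not matched to the lists for level. With RNA content and mitochondrial share held constant as well, the medians were 0.063 for ER chaperones, 0.067 for oxidative phosphorylation, 0.077 for ribosome biogenesis, 0.044 for S phase, 0.040 for translation factors and 0.031 for proteasome. In the ER list Pdia3, a disulfide isomerase, was positive in 6 of 6 sets (0.180), and Hspa5 (BiP) had 0.195, Hsp90b1 0.064 and Canx 0.014. Of oxidative phosphorylation genes Uqcrq (0.142) and Ndufa1 (0.128) were positive in 6 of 6 sets, while Atp5b had 0.113, Atp5a1 0.088, Cox4i1 0.087 and Uqcrh -0.021. Of S phase genes Chaf1b (0.133) and Prim1 (0.180) were, with Mcm6 at 0.147, Mcm3 at 0.117, Dut at 0.108 and Rfc2 at 0.076. Among translation factors Eif3d was (0.106), with Eif5a at 0.279, Eef1a1 at 0.031, Eef1b2 at -0.019 and Eef2 at -0.101. Of ribosome biogenesis genes 5 of 25 were, Ncl, Nop56, Dkc1 (0.224), Ddx21 (0.141) and Nop14 (0.145), while Nop10 had 0.179 and Npm1 0.058. Among proteasome genes 0 of 31 were, and Psmd12 was negative in 6 of 6 sets (-0.202), with Psma1 at 0.234, Psma7 at 0.149, Psmb2 at 0.087 and Psmb1 at 0.024.

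Cofactors and other clients were mixed. Prefoldin, which delivers actin and tubulin to CCT, had 2 of 6 positive means and a median of -0.013. Pfdn5, its most abundant subunit transcript at 364 CPM, had -0.203 with 5 of 6 sets negative, Pfdn4 -0.058, Pfdn6 -0.023 and Vbp1 -0.004, while Pfdn1 had 0.026 and Pfdn2 0.078. Among phosducin-like cofactors, Txndc9 had 0.200, Pdcl3 0.097 and Pdcl -0.021, none with 1 sign in every set. Of tubulin folding cofactors, which take tubulin from CCT, 3 of 6 were positive, from Tbcc (0.115), Arl2 (0.078) and Tbcb (0.047) to Tbcd (-0.013), Tbce (-0.020) and Tbca (-0.065). WD40 and other clients had 3 of 9 positive means, with Gnb1, a G protein beta subunit, negative in 6 of 6 sets (-0.125), Gnb4 at -0.096, Stat3 at -0.025 and Ppp2r2a at 0.062. The R2TP and prefoldin-like list had 4 of 7, with Ruvbl1 at 0.150, Pih1d1 at 0.068, Ruvbl2 at 0.017 and Pdrg1 at -0.064.

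Stem cell genes tended the other way. Of LT-HSC genes 6 of 22 had a positive mean and the median was -0.084, with Procr, the endothelial protein C receptor of primitive HSCs, negative in 6 of 6 sets (-0.180) and Hoxb5 positive in 6 of 6 (0.166). Txnip, an inhibitor of thioredoxin, had -0.215 with 5 of 6 sets negative, Ifitm1 -0.111, Eng -0.076 and Meis1 0.014. Kit, the stem cell factor receptor, was negative in 6 of 6 sets (-0.213) and Cd34 positive (0.158), with Ptprc at 0.066, Angpt1 at 0.022 and Ly6a at -0.061. Lysosome and autophagy genes had 5 of 18 positive, with Map1lc3b at -0.150, Sqstm1 at -0.064, Ctsb at -0.060 and Cd63 at -0.013. Of 6 megakaryocyte genes 4 were positive, with Cd9 at 0.069, Gp9 at 0.018 and Vwf at -0.070. Of the myeloid genes, Lyz2 was negative in 6 of 6 sets (-0.131) and Prtn3 had -0.039, and their part in the CCT score was not tested. The Myc network had 5 of 7 positive means with a median of 0.005, Mycn at 0.074, Mxd1 at 0.013, Max at 0.005 and Myc at 0.004. Of G2/M genes 4 of 27 passed the filter, with Cks2 at 0.080, Top2a at -0.016, Smc4 at -0.094 and Kif23 at -0.291.

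**Figure D5:**
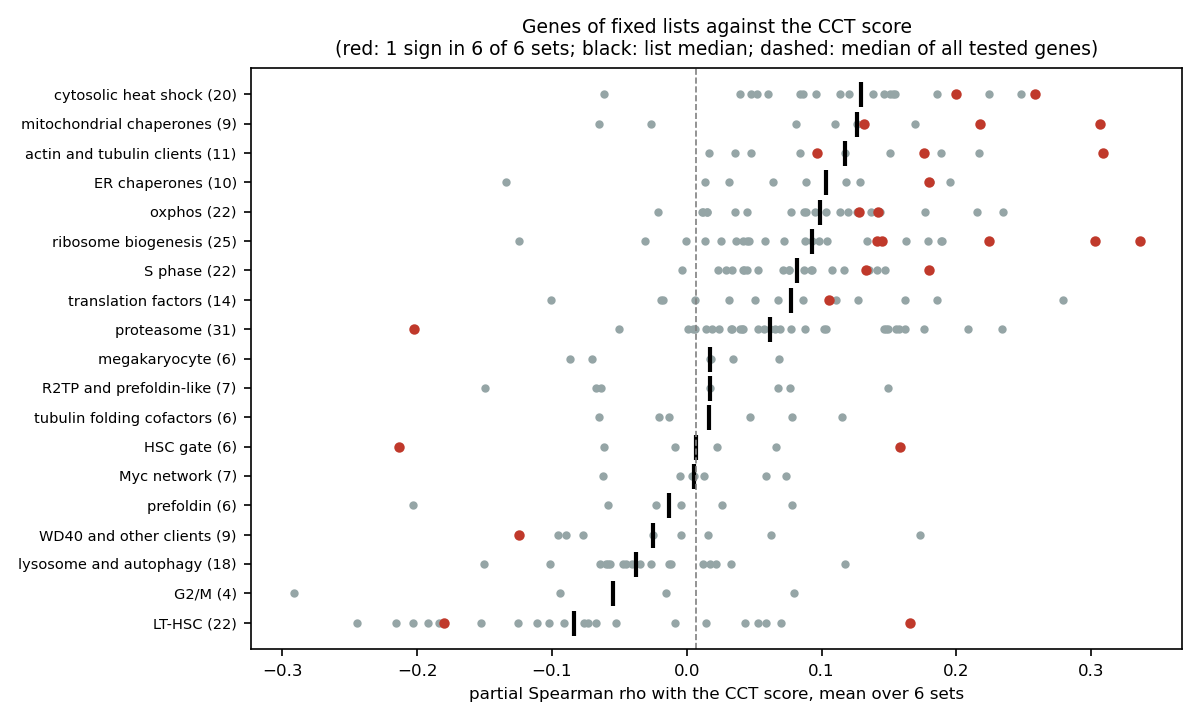
Mean partial rho with the CCT score for every tested gene of the lists with 4 or more tested genes (gray points, red where all 6 sets share 1 sign), the list median (black bar) and the median of all tested genes, 0.007 (dashed). Cytosolic heat shock, mitochondrial chaperone and actin and tubulin lists lie highest and the LT-HSC list lowest.

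List scores, the mean log values over a list, were compared with the CCT score in the same way. The rho was 0.431 for cytosolic heat shock (5 of 6 sets positive, -0.009 in the lowest), 0.376 for ribosome biogenesis, 0.366 for mitochondrial chaperones and 0.353 for actin and tubulin, these 3 in 6 of 6 sets. For oxidative phosphorylation it was 0.371 and for proteasome 0.341, both in 5 of 6 sets. For translation factors it was 0.280, for ER chaperones 0.247 and for S phase 0.214, each in 5 of 6 sets. For G2/M it was -0.118, with 2 of 6 sets positive. For tubulin folding cofactors it was 0.113, with 5 of 6 sets positive. For the LT-HSC list it was -0.189, negative in 6 of 6 sets, from -0.355 to -0.000788. For prefoldin it was 0.015, with 4 of 6 sets positive. The remaining lists lay between -0.011 (lysosome and autophagy) and 0.050 (megakaryocyte). Lists held from 4 to 31 tested genes, and the part of list size in these values was not tested.

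For single subunits, the genes most like each one were not other subunits. Cct8 ranked 21st among 9688 genes for Cct5, and Cct5 25th for Cct8, the closest that any 2 subunits came. For Cct7 the nearest subunit was Cct4 at rank 107, and for Tcp1 it was Cct6a at rank 116, while for Cct2 it was Tcp1 at rank 1248. The 3 named genes most like a subunit with 6 of 6 sets positive were Acat2, Smarcb1 and Tubb5 for Tcp1 (rho 0.401, 0.276 and 0.263), Srsf4, Gtpbp1 and Cfl1 for Cct2 (0.278, 0.263 and 0.256) and Mir5136, Mif and Banf1 for Cct3 (0.314, 0.30 and 0.284). They were Tm9sf2, Cbx6 and Bnip3l for Cct4 (0.267, 0.265 and 0.257), Ogfod2, Grwd1 and Wdr77 for Cct5 (0.236, 0.217 and 0.217) and Ddx39b, Ice2 and Prkra for Cct6a (0.262, 0.246 and 0.241). For Cct7 they were Slc28a3, Nop56 and Sap18b (0.496, 0.245 and 0.235), and for Cct8 Psmc4, Ndufa5 and Glt8d1 (0.261, 0.237 and 0.230). Slc28a3 averaged 2.84 CPM with 215 reads in all, so its value rests on few reads. Whether some of those reads belong to Cct7 was not tested.

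Processed pseudogenes of the subunits had higher values with their parents than these. Gm5380 had a rho of 0.873 with Cct7 (93.5% identity over 569 aligned bases), Gm11516 0.863 with Cct3 (89.8% over 1594), Cct3-ps1 0.827 with Cct3 (91.1% over 1657) and Gm15495 0.765 with Cct4 (86.5% over 1367), each positive in 6 of 6 sets. They were named after their values were seen. Their reads came to 2.67%, 2.36%, 1.96% and 1.32% of the parent's reads, and the sources used here do not say how the authors' counting split reads between like loci. Reads lost or gained by the 3 subunits in this way were not measured.

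Acat2, first for Tcp1, shares 98.7% identity over 445 aligned bases with a Tcp1 transcript, and its 3368 reads equal 12.1% of those of Tcp1. The use of strand in counting is not given, so reads of overlapping genes cannot be told apart. Tcp1 (chr17:12915701-12925067, mm10) shares 16.9% of its exon bases with Acat3, Mrpl18 and a predicted gene, and Cct6a (chr5:129786998-129846371) shares 15.3% with Psph and Snora15. Cct8 (chr16:87483326-87495873) shares 6.22% with Usp16 and Cct7 (chr6:85451514-85468475) 3.16% with Pradc1. Cct2, Cct3, Cct4 and Cct5 share none. Psph had a rho of -0.055 with Cct6a and Usp16 -0.00484 with Cct8, while Acat3 had 0.158 with Tcp1.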

How the data were processed

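Poly(A) RNA of 282 sorted single HSCs was reverse transcribed with template switching, amplified by 22 PCR cycles and tagmented from 700 pg of cDNA, per the labels' protocols. The authors deposited 1 table of raw read counts per gene. Reads were aligned with GSNAP and counted with featureCounts 1.6.2 on mm10, per the submitters' processing notes. How strand and reads with several matches were handled was not given in the sources used here. The table lists 92 spike-in RNAs and 1 transgene, which were left out of library sizes, and spike-ins took 11.7% of reads.

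The members and gene lists were chosen with earlier results of these data known. CPM was computed over Ensembl genes, and levels per kb used the deposited length or the principal transcript of GENCODE M21. Correlations were partial Spearman values within each set, holding constant the plate and the ranks of total counts and genes detected, averaged by Fisher z weighted by cells less 3. They carry no p. Counts summed per set were tested with edgeR 4.0.16 (quasi-likelihood, TMM, filterByExpr, Benjamini-Hochberg, adjusted p of 0.05), with the SE taken as the log2 difference over the square root of F, and with DESeq2 1.42.0 as an alternative. Such p-values reflect how far these sets differ among themselves, and that spread may be technical. Like sequences were found with blastn 2.17.0 (at least 100 aligned bases and 80% identity). Scripts ran in Python 3.11.15 and R 4.3.3 and were tested on simulated data.

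Named genes were all subunits and their paralogs Cct6b and Cct8l1, the prefoldin, phosducin-like and tubulin cofactor genes that passed the filter, the 4 genes of highest mean CPM in every other list, the 10 genes per direction with the largest rho and 1 sign in 6 of 6 sets, and the 3 genes most like each subunit. Predicted genes and pseudogenes were not named by this rule, and 1 gene that it names is not reported here.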

Additional observations from a re-analysis of the deposited data

Results flagged for a closer look

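Over 78 values with 1 number per set, 4 had a single set far from the other 5, or 5.13%, and chance alone marks about 1 in 20. Cct4 with Cct7 had a rho of 0.451 in L29 HSC-3, against 0.0167 to 0.155 in the other sets. Cct5 with Cct6a had 0.147 in L32 HSC-2, against -0.0777 to -0.0167. Tcp1 against the other 7 subunits had 0.522 in L32 HSC-4, against 0.112 to 0.260. Cct6a against the other 7 had -0.00215 in L29 HSC-3, against 0.194 to 0.262.

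Outside the comparisons, the 12 wells that were neither kept nor near-empty held CCT reads. Their summed level was 3380 CPM from 2302 reads, with reads in 11 of 12 wells, above the 4.41 CPM that a count of 0 allows.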

How the results depend on the processing

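No paired analysis was possible because the labels give 1 group only. The spread of the summed CCT level over sets was 8.75% (CV) in CPM and 23.1% per spike-in read. For the library series, genes called were 0 in edgeR, 410 with DESeq2's Wald test, 2 without the filter on low counts and 1 with the stricter cell filter, with 0 subunits called in each and 0 genes when any set was left out. The median log2 difference over all genes was 0.07, 0.27 when L29 HSC-3 was left out, 0.14 when L29 HSC-4 was, and -0.10 without the filter. Subunit pairs positive in every set were 2 (1.63% of all pairs of genes), and 0 with the stricter cell filter (1.57%), 1 with mitochondrial share and RNA content as further covariates (1.6%), 1 with thinned reads (1.52%), 4 with partial Pearson values (1.49%) and 3 with the plate as only covariate (2.59%). Leaving out a set gave 2 to 5 (5 without L29 HSC-4, 4 without L32 HSC-5), with 3.12% to 3.24% of all pairs. Genes going with the CCT score in every set were 316, and 1040 with the plate as only covariate, 474 with partial Pearson values and 246 with mitochondrial share and RNA content as further covariates. Genes going against it were 237, and 132, 166 and 202 under the same settings. Leaving out a set gave 488 to 596 and 373 to 417, where 1 sign was needed in 5 sets. The ratio of the highest to the lowest subunit share was 4.51, and 2.10 without length scaling and 2.77 with principal transcripts. Principal transcripts and ring neighbours were alternatives chosen after seeing the data. Of the 20 genes named for the largest rho, 10 lost their 1 sign in 6 of 6 sets under at least 1 of 5 settings, Ran and Aspscr1 among the positive ones and Cers5, Alkbh5, Mylip, Cir1, Apoa2, Mamdc2, Pdgfrl and Lpl among the negative ones. Depth limits detection, since 10 CPM is 2.8 reads in the median cell.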

Other observations

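Relatives of the CCT subunits outside the complex were lower in reads. Mkks, a chaperonin-like gene of the Bardet-Biedl group, averaged 53.0 CPM and was detected in 24.1% of cells, with a rho of -0.036 with the CCT score. Bbs12 and Bbs10, of the same group, were detected in 6.90% and 4.74% of cells.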
